A study of Mus musculus with 4 samples.

Results

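The genes described here encode 9 factors that the liver releases into blood or its surroundings: the insulin-like growth factor binding proteins Igfbp1, Igfbp2 and Igfbp4, the hormones Fgf21 and Gdf15, the lipase regulators Angptl4 and Angptl8, the activin binder Fst (follistatin) and the chemotactic factor Lect2. They were taken by symbol from the 21959 gene IDs of the deposited table, and all 9 were found, had at least 1 read in every liver and passed the filter on low counts. The samples were 4 wild-type mouse livers in a model of acute-on-chronic liver failure (ACLF), acute damage on top of chronic liver disease. Of these, 2 were from animals given saline and 2 from animals given baicalein, a plant flavone, and all 4 carried the ACLF model, so no healthy liver enters any comparison. The labels do not state how the model was made, the dose, the time of collection, or the age and sex of the animals. They number the livers without saying that each came from a separate animal, and the p-values therefore cover the spread between these samples alone, which may be technical.

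Insulin-like growth factors travel in blood bound to binding proteins, which lengthen their life and control how much reaches the receptor. Hepatocytes raise Igfbp1 in fasting and lower it under insulin, and insulin and feeding raise Angptl8. Fgf21 and Angptl4 respond to fasting through the fatty acid receptor PPAR alpha, Fgf21 and Gdf15 also rise when cells are under stress, and glucagon raises Fst.

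The 250 bases before and 50 bases after the transcription start were available for 7 of the 9 genes (RefSeq, build GRCm38.p6). The following 3 are printed 5′ to 3′ on the gene's own strand. Igfbp1, Fgf21 and Angptl8 were chosen because they are known for their response to insulin or to cell stress and carry a motif tied to either. For Angptl8 the motif is that of stress, while the response given above is to insulin and feeding. Capitals mark CAAAACA, part of the insulin response sequence, in Igfbp1, and TGATGNAA, the C/EBP-ATF response element bound by ATF4, in the other two.
Igfbp1, chr11:7197537-7197836, plus strand: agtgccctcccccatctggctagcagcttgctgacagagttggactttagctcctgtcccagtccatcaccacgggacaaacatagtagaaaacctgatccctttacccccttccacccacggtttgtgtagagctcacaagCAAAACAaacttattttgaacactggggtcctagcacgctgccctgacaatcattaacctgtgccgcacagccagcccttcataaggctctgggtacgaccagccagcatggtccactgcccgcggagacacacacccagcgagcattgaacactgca
Fgf21, chr7:45615441-45615740, minus strand: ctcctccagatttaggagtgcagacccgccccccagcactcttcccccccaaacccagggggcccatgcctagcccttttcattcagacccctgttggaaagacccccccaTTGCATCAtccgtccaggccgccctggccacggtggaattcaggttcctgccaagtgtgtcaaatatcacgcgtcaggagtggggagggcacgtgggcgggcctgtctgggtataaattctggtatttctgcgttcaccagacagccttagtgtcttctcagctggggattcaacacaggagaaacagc
Angptl8, chr9:21835260-21835559, plus strand: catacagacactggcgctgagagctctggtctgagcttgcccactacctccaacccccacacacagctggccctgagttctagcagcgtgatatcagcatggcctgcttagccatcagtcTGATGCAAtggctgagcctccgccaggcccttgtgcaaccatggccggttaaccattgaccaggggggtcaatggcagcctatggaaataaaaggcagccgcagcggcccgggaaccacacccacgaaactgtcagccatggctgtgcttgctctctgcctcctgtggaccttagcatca

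All motifs were searched on both strands. CAAAACA was found in 6.28% of all 32851 promoter windows of this length and, among the members, in Igfbp1, at bases -108 to -102 from the start. TGATGNAA was found in 3.97% of the windows, and in Angptl8 it lay at -130 to -123. Fgf21 held it on the opposite strand, as TTGCATCA at -139 to -132, and the Gdf15 window did not hold it. The E-box CACGTG, which overlaps neither of these matches, was found in 7.15% of windows, including 1 window each of Fgf21, Gdf15 and Igfbp2. Also searched were the STAT motif TTCNNNGAA (8.30% of windows), the D-box TTANGTAA (2.32%) and the DR1 element, AGGTCA repeated after 1 base (0.0396%), whose letters are not in the members' windows. A match describes letters in the window and is no evidence that a factor binds there.

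Total counts ran from 13976440 to 18731616 per liver. The summed hepatocyte markers (6 of 7 listed genes are in the table) stood at 75010 to 79310 CPM (the count scaled by normalised library size) with saline and 94550 to 111000 with baicalein, and none of them was at 0. Most of that sum was albumin (Alb, 55860 and 53160 against 87780 and 74260 CPM), and of the 6 tested 2 rose, 1 fell (Apob, log2 fold change -0.61) and 3 did not pass. The groups differed in more than the agent. All 6 Kupffer cell markers were called higher with baicalein, from sums of 371 and 321 to 666 and 574 CPM. Of 5 red cell markers tested 4 were called lower, from sums of 919 and 659 to 137 and 153 CPM. What these cells add to the results was not tested. The 4 Y-linked genes summed to 820 and 836 counts in the saline livers and 2 and 1 in the baicalein livers, so a difference by treatment and a difference by sex cannot be told apart here. All 11 clock genes tested were called, 8 higher and 3 lower with baicalein, and the groups stood apart in each of them. The lower ones were Arntl (log2 fold change -1.89), Npas2 (-4.15) and Clock (-0.91). The higher ones ran from 0.48 (Nr1d2) to 3.41 (Ciart). This clock difference followed the same split of the livers as treatment and the Y-linked counts. Its part in the results below was not tested. The 8 skeletal muscle markers reached 5417 CPM in saline 1 and 1708 in baicalein 2 against 1.46 in saline 2 and 0.894 in baicalein 1, a split that runs across the groups. Baicalein 2 also stood apart in summed markers of smooth muscle (225 CPM against 7.70 to 20.3 in the other livers) and of cholangiocytes (105 against 8.94 to 20.4). Acta2, Myh11 and Cnn1 were highest there, while Tagln had 2 to 4 reads in every liver. Krt19 (72.2 CPM), Krt7 and Epcam were also highest there. Sox9 went the other way, with 13.2 and 10.6 CPM with saline and 4.40 and 6.24 with baicalein. The part of these cells in the results was not tested.

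The baicalein livers had more Angptl8 and Lect2 RNA and less Angptl4 and Fst RNA than the saline livers. Angptl8 rose 2.27-fold and Lect2 2-fold, while Angptl4 fell 2.95-fold and Fst 2.76-fold (edgeR's quasi-likelihood test, Benjamini-Hochberg adjustment over 12657 genes, adjusted p below 0.05). The other 5 did not pass, among them Igfbp1 and Fgf21, whose fold changes were the 2 largest of the 9 with all 4 livers. Over all tested genes 7.65% were higher and 7.9% lower by this rule, 15.5% in all. Both baicalein livers lay above both saline livers in 3 members (29.7% of all tested genes) and below them in 4 (29.5%), and the groups overlapped in Igfbp2 and Gdf15 (no overlap in 59.2% of all tested genes). With 2 livers against 2 an exact two-sided permutation test cannot go below p = 0.333, so each p-value rests on the spread that edgeR shares between genes.

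**Figure D1:**
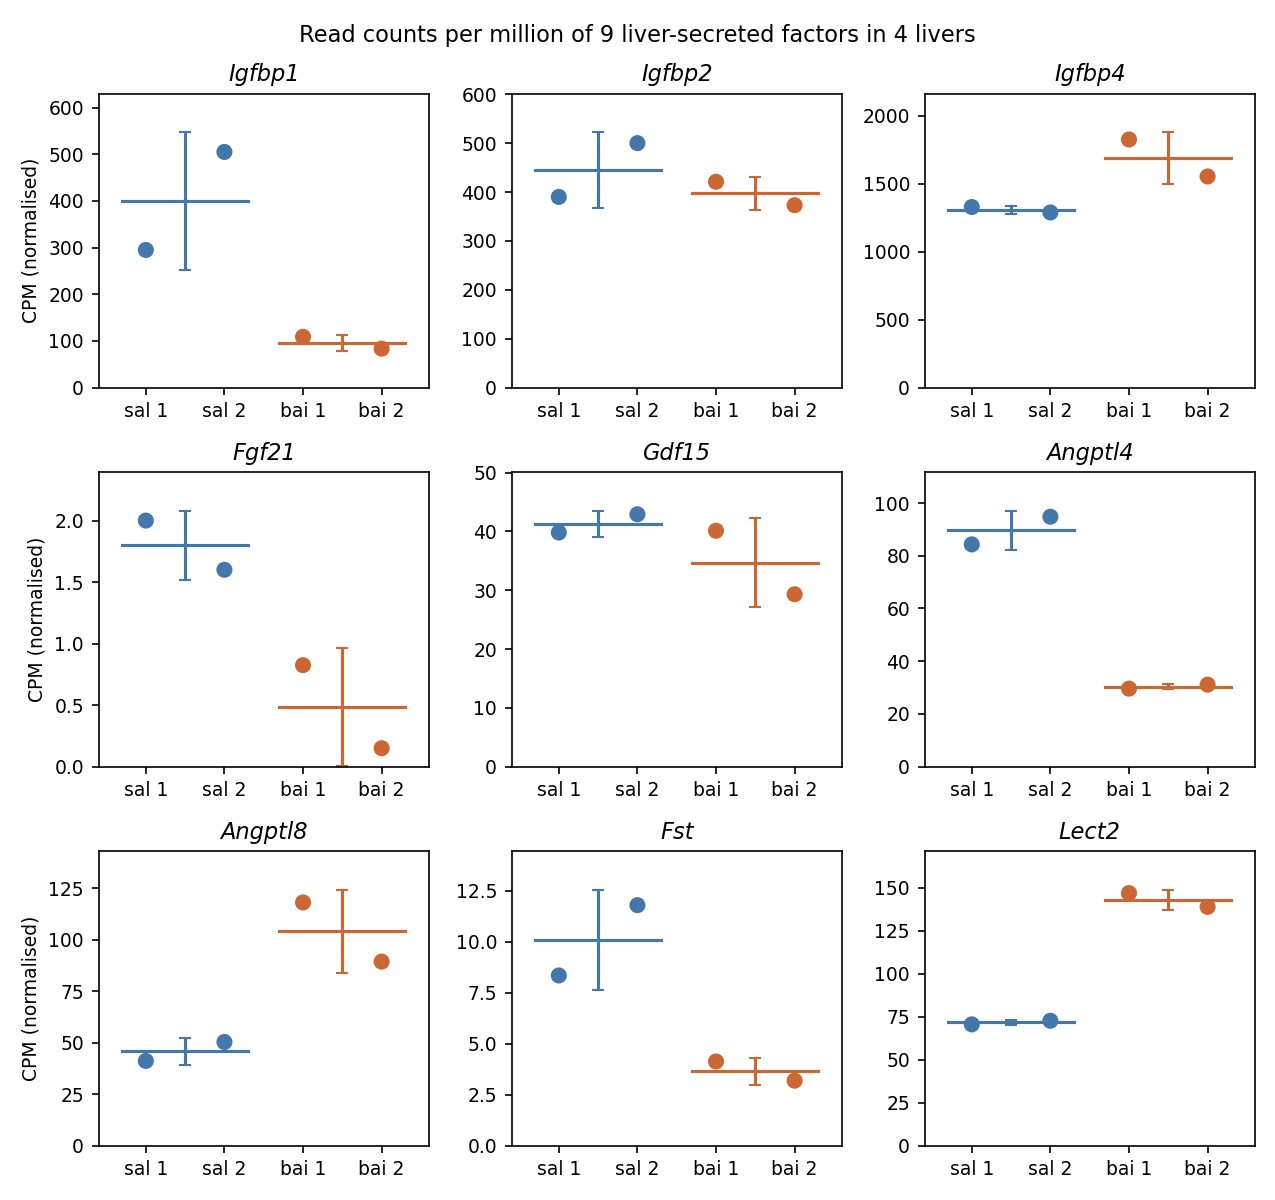
CPM of each gene in each liver (points; vertical axes start at 0 and differ between panels), with the mean (line) and SD (bar) of the 2 saline (sal, blue) and 2 baicalein (bai, orange) livers. The points of the groups stand apart in 7 panels and overlap for Igfbp2 and Gdf15.

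**Figure D2:**
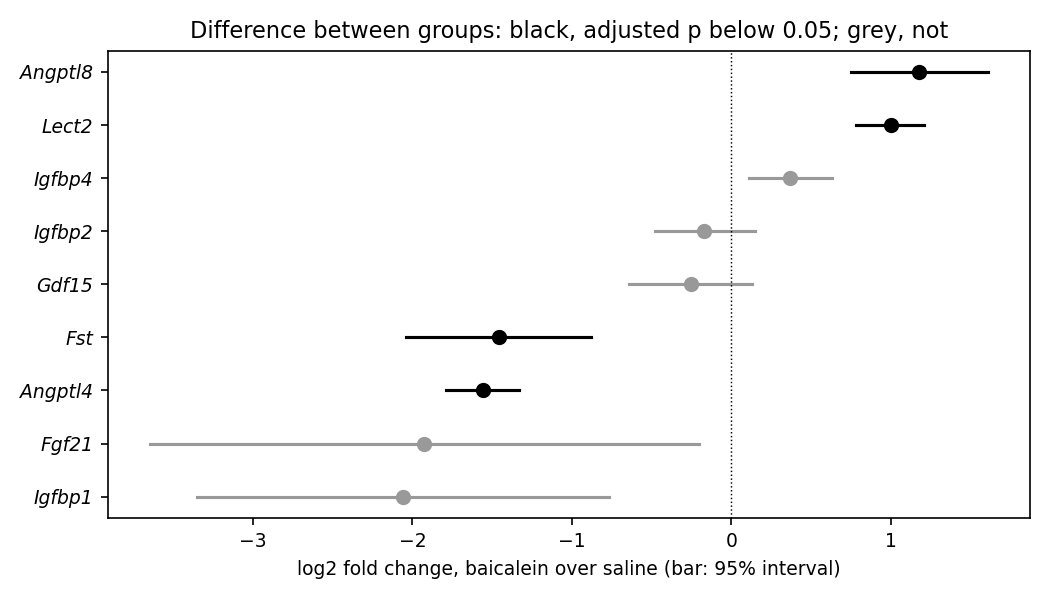
Log2 fold change of baicalein over saline for each gene with its 95% interval from the fit. The intervals of Angptl4, Fst, Angptl8 and Lect2 (black) belong to the genes past the threshold, and those of Igfbp1 and Fgf21 are the widest.

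Igfbp1, the binding protein that insulin represses in hepatocytes, had 5020 and 6920 reads in the saline livers and 1580 and 1676 in the baicalein livers (ENSMUSG00000020429, chromosome 11, 7147782 to 7152546 as the deposited table gives it). This made 295 and 505 CPM with saline against 109 and 83.6 CPM with baicalein, or 400 ± 148 against 96.1 ± 17.7 CPM (SD, n = 2 each). Both saline livers were far above both baicalein livers, but they also differed from each other 1.71-fold. The log2 fold change of -2.06 (SE 0.38, 95% interval -3.35 to -0.77) did not pass in edgeR (adjusted p = 0.0802). The call turned with the treatment of that spread: DESeq2 gave an adjusted p of 2.1e-05 and limma-voom 0.0154. In edgeR Igfbp1 did not pass with the replicate number as a block (adjusted p = 0.217) or with no filter on low counts (0.129). Nor did it pass with median-of-ratios size factors (0.0797) or at a mean CPM of 1 or more (0.078). The edgeR log2 fold change was -2.39 without saline 1 and -1.62 without saline 2. It was -2.26 without baicalein 1 and -1.88 without baicalein 2. Each of these omissions left a lone liver in a group. Over 10 alternatives (omission of each liver, a block term, and other size factors, tools and filters) the adjusted p ran from 2.1e-05 to 0.382, and the gene was lower with baicalein in all of them.

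Igfbp2 (ENSMUSG00000039323, chromosome 1, 72863662 to 72891633) is a binding protein made in quantity by liver. It stood at 390 and 500 CPM with saline and 421 and 373 CPM with baicalein. The baicalein values fell within or just below the saline range, and the log2 fold change of -0.17 did not pass (SE 0.14, 95% interval -0.48 to 0.15, edgeR adjusted p = 0.484). The interval leaves room for a fall or a small rise. Without saline 2 the log2 fold change was 0.02.

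Igfbp4, which inhibits IGF action and is cut by the protease Pappa, had the highest FPKM of the 9, a level per length, in saline 1 and both baicalein livers and stood below Igfbp1 in saline 2 (ENSMUSG00000017493, chromosome 11, 98932070 to 98945218). It had 1329 and 1289 CPM with saline and 1826 and 1554 CPM with baicalein. Both baicalein livers were above both saline livers, yet the log2 fold change of 0.37 did not pass (SE 0.12, 95% interval 0.11 to 0.63, edgeR adjusted p = 0.065). It did pass with DESeq2 (0.00371) and without baicalein 2 (log2 fold change 0.48, adjusted p = 0.0137), within a range of 0.00371 to 0.421 over these 10 alternatives.

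Set side by side on the deposited FPKM scale (reads per length and library total), the binding proteins had a different make-up in the groups while their sum did not separate them. The 7 Igfbp genes summed to 737 and 926 FPKM with saline and 780 and 738 with baicalein. Igfbp1 made 25.3% and 35% of that sum with saline and 9% and 7.95% with baicalein. Igfbp4 made 39.3% and 30.9% with saline and 52.2% and 51.0% with baicalein, and Igfbp2 kept between 27.6% and 29.2% in the 4 livers. The ratio of Igfbp1 to Igfbp4 was thus 0.643 and 1.13 in the saline livers and 0.172 and 0.156 in the baicalein livers. Igf1, the main ligand made by liver, stood at 31.8 and 30.3 FPKM with saline and 31.8 and 30.8 with baicalein.

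**Figure D3:**
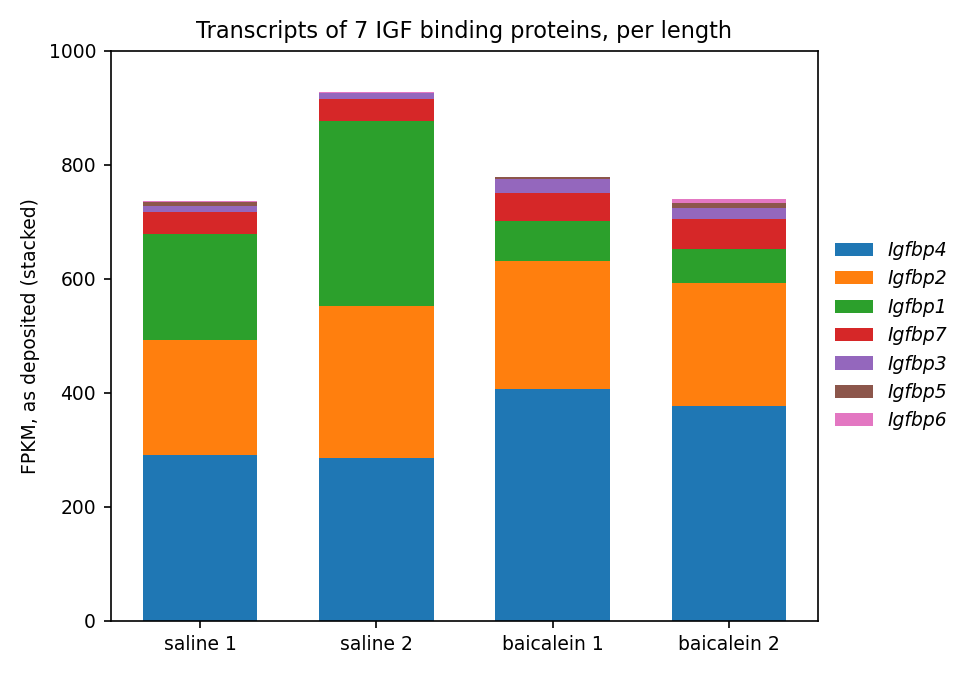
Deposited FPKM of 7 IGF binding protein genes, stacked, in each liver. The Igfbp1 layer is thinner in both baicalein livers (9% and 7.95% of the stack) than in both saline livers (25.3% and 35%), and the Igfbp4 layer is thicker.

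Of 17 other genes of the IGF system 13 could be tested, and Igfbp7 was the 1 that passed. Igfbp7, a related low-affinity binder made by endothelial cells among others, rose from 47.0 and 46.7 CPM to 60.7 and 60.6 CPM (log2 fold change 0.37, SE 0.09, edgeR adjusted p = 0.0207). Leaving out any of the 4 livers ended its call (adjusted p up to 0.103). Igf1r, the IGF receptor, had 3.29 and 2.12 CPM with saline and 4.68 and 7.78 CPM with baicalein and did not pass (edgeR adjusted p = 0.0514). Igfbp3, the main carrier of IGF in adult blood, had 35.4 and 33.0 against 79.8 and 53.5 CPM and did not pass either (0.0645). The median log2 fold change of the 13 was 0.37, beside 0.01 over all tested genes. The 6 sinusoidal endothelial markers all rose, from sums of 268 to 303 CPM to sums of 449 to 458 CPM, and none was at 0. The 8 stellate cell and fibroblast markers, of which 5 rose, summed to 272 to 570 CPM with saline and 539 to 827 with baicalein. The part of these cells in the Igfbp7 and Igfbp4 values was not tested, and in whole liver more cells of a type and more RNA per cell cannot be told apart.

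Fgf21, a hormone that acts on fat and brain through the receptor pair of Klb and an FGF receptor, was scarce in all 4 livers (ENSMUSG00000030827, chromosome 7, 45263310 to 45264914). It had 34 and 22 reads with saline and 12 and 3 with baicalein, which made 2 and 1.6 CPM against 0.825 and 0.15 CPM. Both baicalein livers were below both saline livers, and baicalein 2 was at the level of 3 reads, taken here as the floor of detection. The log2 fold change of -1.93 did not pass (SE 0.75, 95% interval -3.65 to -0.20, edgeR adjusted p = 0.129, 0.0501 to 0.373 over these 10 alternatives). It moved from -3.53 without baicalein 1 to -1.12 without baicalein 2, so its size rests on few reads. Pancreatic acinar cells are another source of Fgf21, and of 7 of their markers Cpa1, Cpb1, Pnlip and Prss2 had no read in any liver. Ctrb1 had 749 reads in baicalein 2 and none in the other livers, Cela1 had 227 to 358 reads in all 4, and the 7 summed to 16.5 to 54.7 CPM. The part of acinar cells in the Fgf21 values was not tested.

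Gdf15, a stress hormone sensed in the brainstem by Gfral and Ret, had 677 and 588 reads with saline and 583 and 587 with baicalein (ENSMUSG00000038508, chromosome 8, 71082043 to 71085106). In CPM this was 39.8 and 42.9 against 40.1 and 29.3. Baicalein 2 was the lowest liver and baicalein 1 lay within the saline range. The log2 fold change of -0.25 did not pass (SE 0.16, 95% interval -0.64 to 0.13, edgeR adjusted p = 0.348). That interval does not reach a 2-fold change in either direction.

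Receptors for these hormones were examined with those of Lect2 (12 genes with the protease Fap, of which 9 could be tested). Klb, the co-receptor that makes a cell respond to Fgf21, rose from 29.3 and 34.8 CPM to 60.7 and 51.1 CPM (log2 fold change 0.80, SE 0.12, edgeR adjusted p = 0.00344). This call held with each liver left out. Fgfr3 rose from 41.0 and 39.9 to 51.2 and 56.4 CPM (log2 fold change 0.41, SE 0.09, edgeR adjusted p = 0.0193), a call lost without saline 1, saline 2 or baicalein 2 (up to 0.110). The list held 1 call without saline 1 and 1 without baicalein 2. The other 7 did not pass, and the median of the 9 was 0.41.

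The integrated stress response, through which ATF4 raises Fgf21 and Gdf15 in stressed cells, was read from 15 genes, of which 14 could be tested. Of these 4 fell and 10 did not pass, the median log2 fold change being -0.31. Atf3 fell from 12.9 and 10.9 CPM to 4.40 and 3.89 CPM (log2 fold change -1.53, SE 0.20, edgeR adjusted p = 0.00132). Atf4 itself fell from 86.1 and 89.6 to 63.6 and 58.0 CPM (-0.53, SE 0.10, adjusted p = 0.00667 in edgeR), and Mthfd2, a mitochondrial folate enzyme, from 3.59 and 4.08 to 0.275 and 0.998 CPM. Atf5, named after its values were seen, was the other that fell. Atf4 was not called without baicalein 2 (0.0626), Mthfd2 not without saline 1, saline 2 or baicalein 1 (up to 0.0854), and Atf5 not without saline 1, saline 2 or baicalein 2 (up to 0.234). Without saline 2 the list held 2 calls. Not all of the list lay lower. Nupr1 (0.941 and 0.292 against 2.34 and 2.39 CPM, adjusted p = 0.0587 in edgeR) and Trib3 (8.88 and 11.2 against 19.9 and 13.9 CPM, 0.0562), named after their values were seen, were higher in both baicalein livers and did not pass. With no filter on low counts the list held 6 calls, 2 of them higher, and 1 gene was called higher without saline 1 and 1 without baicalein 2.

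Angptl4, which inhibits lipoprotein lipase and so the uptake of blood triglyceride into tissue, fell in both baicalein livers (ENSMUSG00000002289, chromosome 17, 33992724 to 34000804). It had 1434 and 1300 reads with saline and 431 and 624 with baicalein, or 84.3 and 94.8 CPM against 29.6 and 31.1 CPM. The 2 livers of each group lay close together and far from the other group, at 89.6 ± 7.43 and 30.4 ± 1.06 CPM (SD, n = 2 each). The log2 fold change was -1.56 (SE 0.10, edgeR adjusted p = 2.6e-05), the smallest adjusted p of the 9. It passed under all 10 of these alternatives, with adjusted p up to 0.00325 and log2 fold changes of -1.64 to -1.48.

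Angptl8, which helps direct triglyceride to fat after a meal, went the other way (ENSMUSG00000047822, chromosome 9, 21746806 to 21748643). It had 699 and 689 reads with saline and 1713 and 1790 with baicalein, or 41.1 and 50.3 CPM against 118 and 89.3 CPM. Both baicalein livers were above both saline livers (log2 fold change 1.18, SE 0.17, edgeR adjusted p = 0.00906). Its log2 fold change was 0.97 to 1.37 over these 10 alternatives. With the replicate number as a block, 1 of them, it was 1.17 and did not pass (edgeR adjusted p = 0.0806). The gene lies within Dock6 on the opposite strand. Dock6 had 259 to 562 reads and a log2 fold change of 0.57 (edgeR adjusted p = 0.0165), in the same direction as Angptl8, and with no strand setting stated for the counting, the reads of the pair could be mixed. Dock6 was named after its position was looked up and lies outside the fixed lists. On the FPKM scale Angptl8 stood 2 and 2.17 times above Angptl4 in the saline livers and 16.3 and 11.7 times above it in the baicalein livers.

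Around these regulators, 9 genes of the lipoprotein lipase axis were tested and Lipg passed. Lipg, endothelial lipase, fell from 15.6 and 21.1 to 12.2 and 10.4 CPM (log2 fold change -0.70, SE 0.18, edgeR adjusted p = 0.0296), a call lost without saline 2, baicalein 1 or baicalein 2 (up to 0.210). With DESeq2, and without baicalein 2, Lipg was not called and 1 other gene of the list was called higher. Apoa5, an apolipoprotein that promotes lipase action, had 455 and 431 CPM with saline and 603 and 496 CPM with baicalein and did not pass (edgeR adjusted p = 0.121). The median over the 9 was 0.06. Adipocytes also make Angptl4 and Angptl8, and 5 of their markers summed to 9.93 and 2.99 CPM with saline and 1.24 and 8.93 CPM with baicalein, which overlap. Cidec made the whole sum in saline 2 and baicalein 1. Adipoq (37 and 42 reads), Plin1, Lep and Retn had reads in saline 1 and baicalein 2 alone, the livers with muscle RNA. The part of adipocytes in the Angptl4 and Angptl8 values was not tested.

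Genes that share the known regulators of Angptl4, Angptl8, Fgf21 and Igfbp1 were counted from 3 lists. Of 15 PPAR alpha targets 8 fell, 1 rose and 6 did not pass, at a median log2 fold change of -0.53. Fabp1, the liver fatty acid carrier, fell from 2550 and 2530 to 1283 and 1173 CPM (-1.05, SE 0.11, edgeR adjusted p = 0.000383). Creb3l3, encoding a fasting transcription factor that drives Fgf21 with PPAR alpha, fell from 408 and 440 to 264 and 241 CPM (-0.75, SE 0.10, edgeR adjusted p = 0.00197). Plin2 of the lipid droplet coat had the smallest p of the list (-1.53, SE 0.11). The exception was Cyp4a14, a fatty acid hydroxylase named after its values were seen, which rose from 127 and 162 to 289 and 386 CPM. Members of the Cyp4a family are alike in sequence, so its value is uncertain where counting could split reads.

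Of 10 feeding, insulin and SREBP1c genes 8 rose and 1 fell, and the median log2 fold change was 0.97. Srebf1, the lipogenic transcription factor, rose from 178 and 145 to 441 and 379 CPM (1.34, SE 0.13, edgeR adjusted p = 0.000383). Thrsp, a lipogenic cofactor, rose from 148 and 153 to 419 and 331 CPM. Me1, malic enzyme, was the 1 that fell (-0.56, SE 0.10) and was named after its values were seen; it was not called without saline 1 (0.0661). Without saline 1 the list held 5 calls, all higher.

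Fasting, glucagon and FoxO1 genes did not move in a single direction, with 2 of 8 tested rising, 2 falling and a median log2 fold change of 0.46. G6pc, the last enzyme of glucose release, fell from 451 and 689 to 184 and 149 CPM (-1.77, SE 0.27, edgeR adjusted p = 0.0286), with the higher value in saline 2 as for Igfbp1. That call was lost without baicalein 1 or baicalein 2 (up to 0.294). Sds, a serine-degrading enzyme, rose from 37.2 and 36.6 to 83.2 and 79.4 CPM and Klf15, a fasting transcription factor, from 99.6 and 105 to 170 and 151 CPM. Tat, a tyrosine-degrading enzyme named after its values were seen, was the other that fell, though no longer when saline 1, saline 2 or baicalein 2 was omitted (up to 0.306). Without baicalein 2 the list held 2 calls. The labels give no feeding state, so its part in these values was not tested.

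Fst, which binds and blocks activins, was low and fell further (ENSMUSG00000021765, chromosome 13, 114588826 to 114595487). It had 142 and 162 reads with saline and 60 and 64 with baicalein, or 8.35 and 11.8 CPM against 4.13 and 3.19 CPM. Both baicalein livers were below both saline livers (log2 fold change -1.46, SE 0.25, edgeR adjusted p = 0.00548). The call was lost without baicalein 2 (log2 fold change -1.28, adjusted p = 0.0612), which left Angptl4 as the 1 member called lower.

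Of 16 activin system genes 12 could be tested, of which 2 fell, 1 rose and 9 did not pass, with a median log2 fold change of -0.06. Inhbe, encoding the hepatocyte activin E subunit, fell from 102 and 76.3 to 32.7 and 27.7 CPM (log2 fold change -1.56, SE 0.17, edgeR adjusted p = 0.00346). Inhbc, the activin C subunit, fell from 74.8 and 65.6 to 47.8 and 46.0 CPM (-0.58, SE 0.10, edgeR adjusted p = 0.00494), and was not called without baicalein 2 (0.0552). Tgfbr3, a co-receptor for inhibin and TGF-beta that stellate and endothelial cells also carry, rose from 17.2 and 18.5 to 31.0 and 40.6 CPM (1.01, SE 0.15, edgeR adjusted p = 0.00243).

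Lect2, a hepatocyte protein that draws in leukocytes and binds the endothelial receptor Tie1, doubled with little spread (ENSMUSG00000021539, chromosome 13, 56690277 to 56696315). It had 1201 and 997 reads with saline and 2143 and 2787 with baicalein, or 70.6 and 72.7 CPM against 147 and 139 CPM. The second liver stood at 1.03 times the first with saline and at 0.944 times with baicalein, and both baicalein livers were far above both saline livers (log2 fold change 1.00, SE 0.09, edgeR adjusted p = 0.000254). It passed under all 10 of these alternatives (adjusted p up to 0.00686, log2 fold change 0.96 to 1.04). Tie1 had 18.8 and 17.6 CPM with saline and 21.1 and 23.3 CPM with baicalein and did not pass (edgeR adjusted p = 0.156).

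Of 14 other liver-secreted factors 6 rose, 1 fell and 7 did not pass, with a median log2 fold change of 0.29. Gdf2, the vascular hormone BMP9, rose from 9.93 and 10.5 to 38.6 and 30.8 CPM (1.76, SE 0.14, edgeR adjusted p = 0.000102). Tsku, a hepatokine tied to energy use and cholesterol handling, fell from 84.1 and 74.0 to 32.8 and 32.4 CPM (-1.28, SE 0.10, edgeR adjusted p = 7.76e-05). Manf, a factor released under stress of the endoplasmic reticulum, rose from 52.8 and 51.9 to 101 and 82.3 CPM. These 3 kept their calls with each liver left out, while the list held 4 calls without saline 1 and 3 without baicalein 1.

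**Figure D4:**
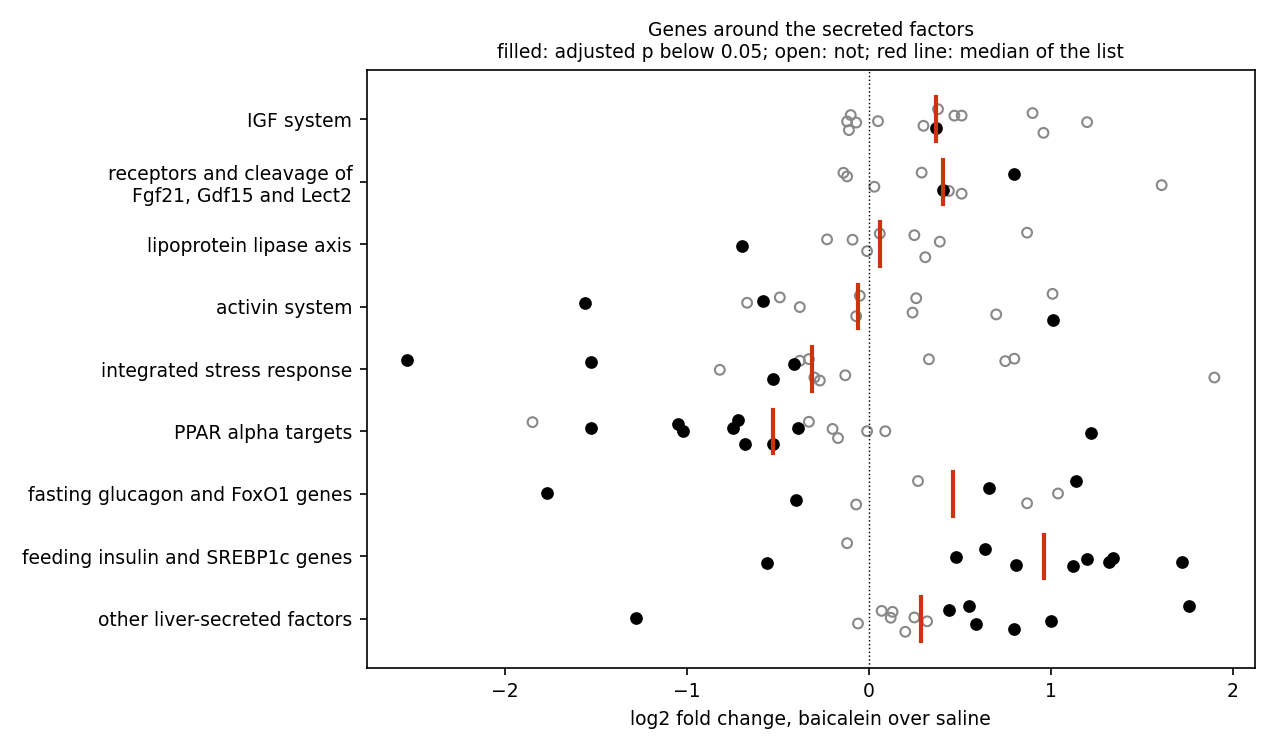
Log2 fold change of baicalein over saline for each tested gene of the 9 lists around the secreted factors (filled, past the threshold; open, not; red line, the list's median; vertical scatter within a row has no meaning). PPAR alpha targets lie mostly left of 0 (8 fell, 1 rose) and the feeding genes mostly right of it (8 rose, 1 fell).

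The order of the members by FPKM, which can be compared between genes, differed between the groups in its middle ranks. With saline it ran Igfbp4 (mean 288), Igfbp1 (255), Igfbp2 (234), Lect2 (75.8), Angptl8 (51.4), Angptl4 (24.6), Gdf15 (21.7), Fst (2.14) and Fgf21 (1.84). The ranges of the 2 livers overlapped between Igfbp4 and Igfbp1, between Igfbp1 and Igfbp2, and between Fst and Fgf21, so these neighbours were not separated. With baicalein it ran Igfbp4 (392), Igfbp2 (220), Lect2 (160), Angptl8 (122), Igfbp1 (64.4), Gdf15 (19.1), Angptl4 (8.83), Fst (0.815) and Fgf21 (0.511), and the ranges of Fst and Fgf21 alone overlapped. By single livers Igfbp1 stood in the third place in saline 1, in the first in saline 2 and in the fifth in both baicalein livers. Among genes with any read, Igfbp4 was at percentile 98.9 in both saline livers and 99.2 in both baicalein livers, and Fgf21 between 16.1 and 49.7 in the 4 livers.

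For the 2 members of largest fold change, the genes of most similar pattern over the 4 livers were looked up among 9287 others, by the root mean square difference of centred log2 CPM. Those nearest to Igfbp1 were Slc25a30, a mitochondrial carrier (difference 0.104), Slc17a8, a glutamate transporter (0.127), and G6pc (0.148). Slc25a30 had 102 and 149 CPM with saline and 31.9 and 27.8 with baicalein, with saline 2 the highest liver as for Igfbp1. Those nearest to Fgf21 were Slc22a7, Fabp5 and Cyp8b1, at differences of 0.658 to 0.660, so no gene followed its counts closely. With 4 livers in 2 groups many genes share a pattern, and this is a description with no test.

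The livers with skeletal muscle RNA could be compared with each other, and those almost free of it likewise. From saline 1 to baicalein 2, both with muscle markers, the log2 ratio was -1.82 for Igfbp1, -1.44 for Angptl4, 1.12 for Angptl8, -1.39 for Fst and 0.98 for Lect2. From saline 2 to baicalein 1, nearly without them, it was -2.22, -1.68, 1.23, -1.52 and 1.02 for the same genes. Each pair was 1 liver against 1 with no replicate, so the likeness of its ratios to those of the other pair has no measure of spread. Each pair also differed in Y-linked counts, and the part of muscle RNA in the differences was not tested. Igfbp4 gave 0.23 and 0.50, Igfbp2 -0.06 and -0.25, Gdf15 -0.44 and -0.10, and Fgf21 -3.74 and -0.96 in the pair with muscle RNA and the pair without. Outside the members, Igfbp5 was higher in the livers with muscle RNA, at 40.4 CPM in saline 1 and 52.6 in baicalein 2 against 6.78 in saline 2 and 12.7 in baicalein 1. Between those livers the summed muscle markers were higher in saline 1. Igfbp5 was higher in baicalein 2. Of the muscle markers Myh1 was also higher there (252 CPM in saline 1 and 287 in baicalein 2), and Tnnc2 had 0 and 2 reads. Acta1, Ckm, Myh4, Tnnt3, Mylpf and Atp2a1 were all higher in saline 1, such as Acta1 (1399 against 694 CPM) and Myh4 (1553 against 30.3). The fibroblast collagens Col1a1, Col1a2 and Col3a1 were also highest in the livers with muscle RNA. In saline 1, saline 2, baicalein 1 and baicalein 2 Col1a1 had 130, 32.7, 28.7 and 101 CPM. Col1a2 had 126, 32.6, 44.9 and 142 CPM and Col3a1 186, 82.6, 105 and 250 CPM in the same order. The other 5 of the 8 stellate cell and fibroblast markers were higher with baicalein, among them Dcn (70.1, 64.5, 169 and 172 CPM). These genes outside the members were named after their values were seen. The part of muscle and of fibroblasts in the Igfbp5 values was not tested.

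**Figure D5:**
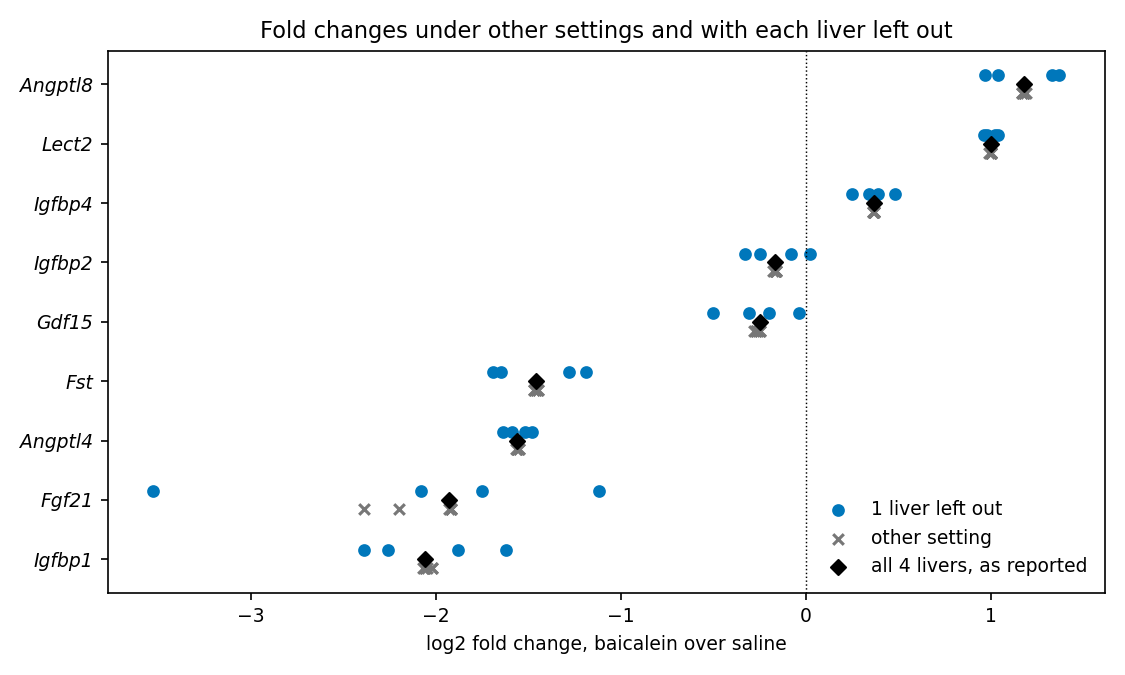
Log2 fold change of each member with all 4 livers (diamond), with 1 liver left out (circles) and under other settings (crosses). Angptl4 and Lect2 hardly move, Fgf21 spreads from -3.53 to -1.12, and Igfbp2 touches 0.02 without saline 2.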

How the data were processed

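RNA of 4 mouse livers was sequenced from libraries of a SMARTer mRNA kit, per the labels' protocols, and grouped by the treatment labels. The authors deposited 1 table with a read count and an FPKM value per gene and liver. The submitters' processing notes name build mm10. Not given in the sources used here are aligner, counter and strand setting. Of the 9 members, 0 had the mm10 start and end of GENCODE M21, so gene positions are as deposited and not to be mixed with the GRCm38.p6 promoter coordinates. The deposited FPKM matched count, length and library total to within 0.00387% for the members and served to compare levels between genes.

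Counts were filtered (filterByExpr, 12657 genes left), TMM-scaled and fitted with edgeR 4.0.16 under R 4.3.3 (quasi-likelihood, robust, two-sided, treatment alone). The SE is the log2 fold change over the root of F. The fit was tested on simulated counts. In a single liver 3 reads make 0.150 to 0.219 CPM. Alternatives were median-of-ratios (RLE) size factors, DESeq2 1.42.0, limma-voom 3.58.1, no filter, mean CPM of 1 or more, a block for the replicate number, and leaving out each liver.

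Members and lists were chosen with earlier results of these data known. Named genes are the members, the 3 genes of smallest p in each list, every gene that passed where fewer than 4 did, and the 3 of most similar pattern (mean CPM at least 5) for the 2 members of largest change. Some listed genes are not reported by name here. The listed symbols G6pc1, Sepp1, Tf and Bmal1 had no match. Markers of Kupffer cells (321 to 371 CPM with saline, 574 to 666 with baicalein), smooth muscle (20.3 and 9.92 CPM with saline, 7.70 and 225 with baicalein), cholangiocytes (20.4 and 14.8 with saline, 8.94 and 105 with baicalein) and red cells (659 to 919 with saline, 137 to 153 with baicalein) were also summed.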

Additional observations from a re-analysis of the deposited data

How the results depend on the processing

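Of 99 refits of single members, 87 kept direction and side of the threshold, 9 gained a call (Igfbp1 5 times, Igfbp4 3 times, Fgf21 with crossed pairs), 2 lost it and 1 changed sign (Igfbp2, from -0.33 to 0.02 with 1 liver left out, the latter without saline 2). Angptl4 and Lect2 passed under all alternatives. Counts of calls over the whole table fell with 1 liver left out, where fewer degrees of freedom remain and a lone liver is assumed to vary like the other group: 533 to 614 genes higher (968 with all livers), 487 to 639 lower (1000). Members then numbered 2 to 3 higher and 1 to 3 lower. For the lists the calls were then 0 to 1 (IGF system; 2 to 3 at an unadjusted p under 0.05), 1 to 2 (receptors), 0 to 1 (lipase axis; 1 to 5 unadjusted), 2 to 3 (activin), 2 to 3 (stress response), 6 to 9 (PPAR alpha), 2 to 4 (fasting), 5 to 8 (feeding) and 3 to 8 (other factors) in edgeR. The IGF system had 2 calls with RLE size factors, 2 with DESeq2 and 2 with no filter on low counts (1 as reported), and the lipase axis 2 with no filter (1 as reported). With limma-voom 632 genes were higher, and the calls were 1 (receptors), 0 (lipase axis; 3 unadjusted) and 4 (other factors). The cause was not tested.

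Livers with the same number did not deviate together (correlation of deviations -0.793 over 12657 genes). With the replicate number as a block 531 genes were higher and 601 lower, and 1 member was called higher (Lect2, edgeR adjusted p = 0.00601). Angptl8 did not pass there (log2 fold change 1.17, edgeR adjusted p = 0.0806). The list calls with the block were 1 (receptors), 0 (lipase axis, 3 unadjusted), 2 (fasting) and 4 (other factors). Crossed pairs, added after seeing the data, gave 1809 genes higher and 1689 lower, with 4 members lower (Igfbp1 and Fgf21 added) and 3 higher (Igfbp4 added). The list calls were then 6 (IGF system), 4 (receptors), 3 (lipase axis), 7 (stress response) and 7 (fasting). With 2 livers per group the correlation for crossed livers was bound to be 0.793, the value above with its sign turned. A crossed block thus takes up spread within the groups. Its added calls, which are among those gained above, are no support. Depth limits Fgf21, with 3 to 34 reads, and Mthfd2.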
